A study of Homo sapiens with 12 samples.

Results

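The FOXO proteins are forkhead transcription factors at the end of the insulin and IGF pathway. When growth factors are plentiful, AKT phosphorylates them, 14-3-3 proteins bind them and they are held outside the nucleus; when nutrients and insulin fall, they enter the nucleus and switch on genes for growth arrest, stress resistance and catabolism. Much of this control acts on the protein, so the mRNA level of a FOXO gene is not a measure of its activity. The 9 genes described here were chosen by symbol: FOXO1, FOXO3 and FOXO4 with 6 genes known to respond to FOXO activity or to nutrient supply in many cell types: TXNIP, ARRDC4, PIK3IP1, CCNG2, BCL6 and CITED2. They are among the 26475 genes in the count files, and all 9 were among the 15461 genes with enough reads to be tested.

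The cells were SUM159PT, a human breast cancer line of the triple-negative, mesenchymal-like kind, grown as tumours in female NOD scid gamma mice that received 1500000 cells at 8 weeks of age. These mice lack T, B and natural killer cells but keep myeloid cells, fibroblasts and vessels of their own. Cells from the tumours were sorted on their surface CD44 and CD24, with antibodies specific for the human proteins. There were 4 groups of 3 libraries: FMD_LO (CD44+CD24-Low cells, mice on cycles of a fasting-mimicking diet on 4 consecutive days of each week), CTR_LO (the same gate, standard diet, labelled Untreated), FMD_HI (CD44+CD24-High cells, fasting-mimicking diet) and CTR_HI (CD44+CD24-High cells, standard diet). All groups come from 1 cell line, and the labels do not say which libraries came from 1 tumour, so p-values measure the spread between libraries, which may in part be technical. The 7 markers of the line that should be present, vimentin and CD44 among them, were above 1 count per 1000000 (CPM) in all 12 libraries, and ESR1 and PGR together stayed at or below 0.831 CPM.

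FMD_LO differed from the remaining groups in depth and in markers of other cell types. Its libraries held 17736610 to 18579816 counts, against 29820825 to 47587142 in CTR_LO, 31903233 to 37779053 in FMD_HI and 29049144 to 32916552 in CTR_HI. Summed over 15 leukocyte markers they had 609 to 658 CPM, most of it LCP1. The sums were 125 to 131 CPM in CTR_LO, 135 to 154 CPM in FMD_HI and 103 to 165 CPM in CTR_HI. Of the 15, 10 were above 1 CPM in every FMD_LO library, against 5 in CTR_LO, 7 in FMD_HI and 4 in CTR_HI. In FMD_LO 2 of the 15, TYROBP among them, were at 0. Every FMD_LO library was above CTR_LO for 10 of the 15 and above FMD_HI for 9. CD68 overlapped both groups, with means of 17.7 CPM in FMD_LO and 19.0 CPM in FMD_HI. The 11 fibroblast markers summed to 46918 to 69534 CPM in FMD_LO, against 19848 to 35422 CPM in CTR_LO, 13962 to 17705 CPM in FMD_HI and 16116 to 30244 CPM in CTR_HI, with none of the 11 at 0. The collagen genes COL1A1, COL3A1 and COL1A2 gave most of it. Of the 11, 7 were above CTR_LO in every FMD_LO library, while DCN, LUM, THY1 and POSTN overlapped. The 9 endothelial markers summed to 31.5 to 77.9 CPM in FMD_LO, against 8.198 to 20.6 CPM in CTR_LO, 7.41 to 8.22 CPM in FMD_HI and 6.57 to 11.1 CPM in CTR_HI. TIE1 and KDR had the highest FMD_LO means, at 19.3 and 10.7 CPM. Without TIE1 the sums were 21.0 to 41.1 CPM in FMD_LO and 7.19 to 14.0 CPM in CTR_LO. Of the 9, 4 were above CTR_LO in every FMD_LO library: PECAM1, KDR, TEK and TIE1. CDH5, VWF, CLDN5, EMCN and ESAM overlapped, so the rise was not shared by the whole list. VWF averaged 2.50 CPM in FMD_LO and 2.03 CPM in CTR_LO. The 7 skeletal muscle markers summed to 63.2 to 94.2 CPM in FMD_LO, with MYH4 at 0, against 5.35 to 12.9 CPM in CTR_LO, 3.78 to 7.02 CPM in FMD_HI and 4.87 to 8.62 CPM in CTR_HI. ACTA1 gave most of the FMD_LO sum, with a mean of 73.9 CPM. Without ACTA1 the sums were 3.26 to 4.39 CPM in FMD_LO and 4.78 to 8.85 CPM in CTR_LO. Of the 7, 2 were higher and 1, TNNT3, was lower in every FMD_LO library than in CTR_LO, so the muscle list did not rise as a set. The 10 dissociation and stress genes overlapped between FMD_LO (14420 to 18012 CPM) and CTR_LO (13377 to 18662 CPM), and so did 5 adipocyte markers. Of the 7 markers of the line itself, 1 fell in FMD_LO, KRT18, with 299 ± 30.5 CPM in FMD_LO and 401 ± 36.1 CPM in CTR_LO (-0.42 ± 0.12, adjusted p = 0.0266 by edgeR), and their median log2 fold change was -0.32 against -0.03 over all tested genes. KRT8 and CAV1 were also below CTR_LO in every FMD_LO library without passing, with 327 to 341 CPM in FMD_LO and 423 to 424 CPM in CTR_LO for KRT8. These marker shifts lie beside every FMD_LO result that follows, and their part in those results was not tested. In such bulk samples fewer cells of a type and less RNA per cell cannot be told apart.

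The promoters of 4 genes are shown because they belong to the members the results turn on, or because they hold the motifs searched. Each is the 300-base window of RefSeq (GRCh38.p14) from 250 bases before to 50 bases after an annotated start, read 5′ to 3′ on the strand of the gene. Capitals mark 3 motifs, searched on both strands: GTAAACA, a core that forkhead factors can bind; CACGTG, the E-box; and the half-sites CACGNG and CACGNG separated by 5 bases, the layout of a carbohydrate response element, which was written down after the TXNIP promoter had been looked at. The windows are PIK3IP1 at its second annotated start (chr22:31292439-31292738, minus strand), BCL6 (chr3:187745419-187745718, minus strand), TXNIP (chr1:145996530-145996829, minus strand) and ARRDC4 (chr15:97960453-97960752, plus strand).
PIK3IP1: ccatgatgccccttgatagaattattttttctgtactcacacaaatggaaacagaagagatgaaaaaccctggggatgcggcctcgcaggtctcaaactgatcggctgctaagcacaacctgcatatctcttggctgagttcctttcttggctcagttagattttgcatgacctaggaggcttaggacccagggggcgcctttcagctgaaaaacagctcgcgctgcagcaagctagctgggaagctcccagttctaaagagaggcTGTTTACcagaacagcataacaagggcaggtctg
BCL6: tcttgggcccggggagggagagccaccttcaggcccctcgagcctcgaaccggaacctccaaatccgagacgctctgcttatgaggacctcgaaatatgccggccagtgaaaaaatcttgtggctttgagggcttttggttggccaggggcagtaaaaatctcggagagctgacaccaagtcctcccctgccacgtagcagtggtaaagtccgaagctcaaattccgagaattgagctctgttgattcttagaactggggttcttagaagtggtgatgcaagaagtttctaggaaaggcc
TXNIP: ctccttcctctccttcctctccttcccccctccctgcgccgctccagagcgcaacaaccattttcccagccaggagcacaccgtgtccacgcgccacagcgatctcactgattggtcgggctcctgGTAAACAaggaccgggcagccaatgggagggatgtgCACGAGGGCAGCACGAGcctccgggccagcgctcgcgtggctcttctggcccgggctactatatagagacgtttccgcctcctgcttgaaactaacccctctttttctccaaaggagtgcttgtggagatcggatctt
ARRDC4: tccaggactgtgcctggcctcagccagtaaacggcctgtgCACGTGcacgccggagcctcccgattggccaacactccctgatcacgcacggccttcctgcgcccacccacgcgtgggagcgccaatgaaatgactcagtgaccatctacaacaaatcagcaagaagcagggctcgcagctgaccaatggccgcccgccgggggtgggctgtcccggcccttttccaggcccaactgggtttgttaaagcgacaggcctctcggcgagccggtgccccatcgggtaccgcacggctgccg

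The forkhead core was present in 1 window each of TXNIP (first base 124 bases before the start), PIK3IP1 (as TGTTTAC, 17 bases into the transcript) and FOXO4 (24 bases into the transcript), so in 3 of the 9 genes and in 3 of their 17 windows. Over all 35116 windows of the same length, 3.42% held it. The E-box was present in 1 window each of CCNG2, CITED2 and ARRDC4, again in 3 of 17 windows, against 7.26% of all windows. The spaced half-sites were present in TXNIP alone of the 9, and in 0.057% of all windows. No motif overlapped another, and BCL6 held none of the 3 in either of its windows. A match describes the letters of a window and not a bound site.

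Measured per kilobase of exon, so that genes can be ranked, the level was highest for TXNIP, at 58.6 ± 24.5 CPM per kb in FMD_LO and 72.6 ± 5.61 CPM per kb in CTR_LO (SD, n = 3 each). CITED2 had 53.8 ± 3.03 CPM per kb in FMD_LO and 40.5 ± 5.89 CPM per kb in CTR_LO. TXNIP and CITED2 did not separate in FMD_LO, where the single libraries spanned 42.5 to 86.8 CPM per kb for TXNIP and 50.5 to 56.5 CPM per kb for CITED2. PIK3IP1 (22.4 ± 3.58 CPM per kb in FMD_LO, 29.8 ± 1.32 CPM per kb in CTR_LO) and BCL6 (24.98 ± 3.60 CPM per kb in FMD_LO, 15.2 ± 3.75 CPM per kb in CTR_LO) came next, and their single libraries overlapped in FMD_LO. FOXO3 was the most abundant FOXO mRNA per length, with 8.55 ± 1.14 CPM per kb in FMD_LO and 7.74 ± 0.591 CPM per kb in CTR_LO, above CCNG2 at 5.93 ± 0.451 CPM per kb in FMD_LO and 6.03 ± 0.868 CPM per kb in CTR_LO. FOXO1, FOXO4 and ARRDC4 lay between 3.30 and 4.46 CPM per kb in all 4 group means and their order differed between the groups. FOXO6, the remaining FOXO paralog, was lowest, with group means of 1.92 to 2.81 CPM per kb and 3.26 to 8.70 CPM in single libraries.

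**Figure D1:**
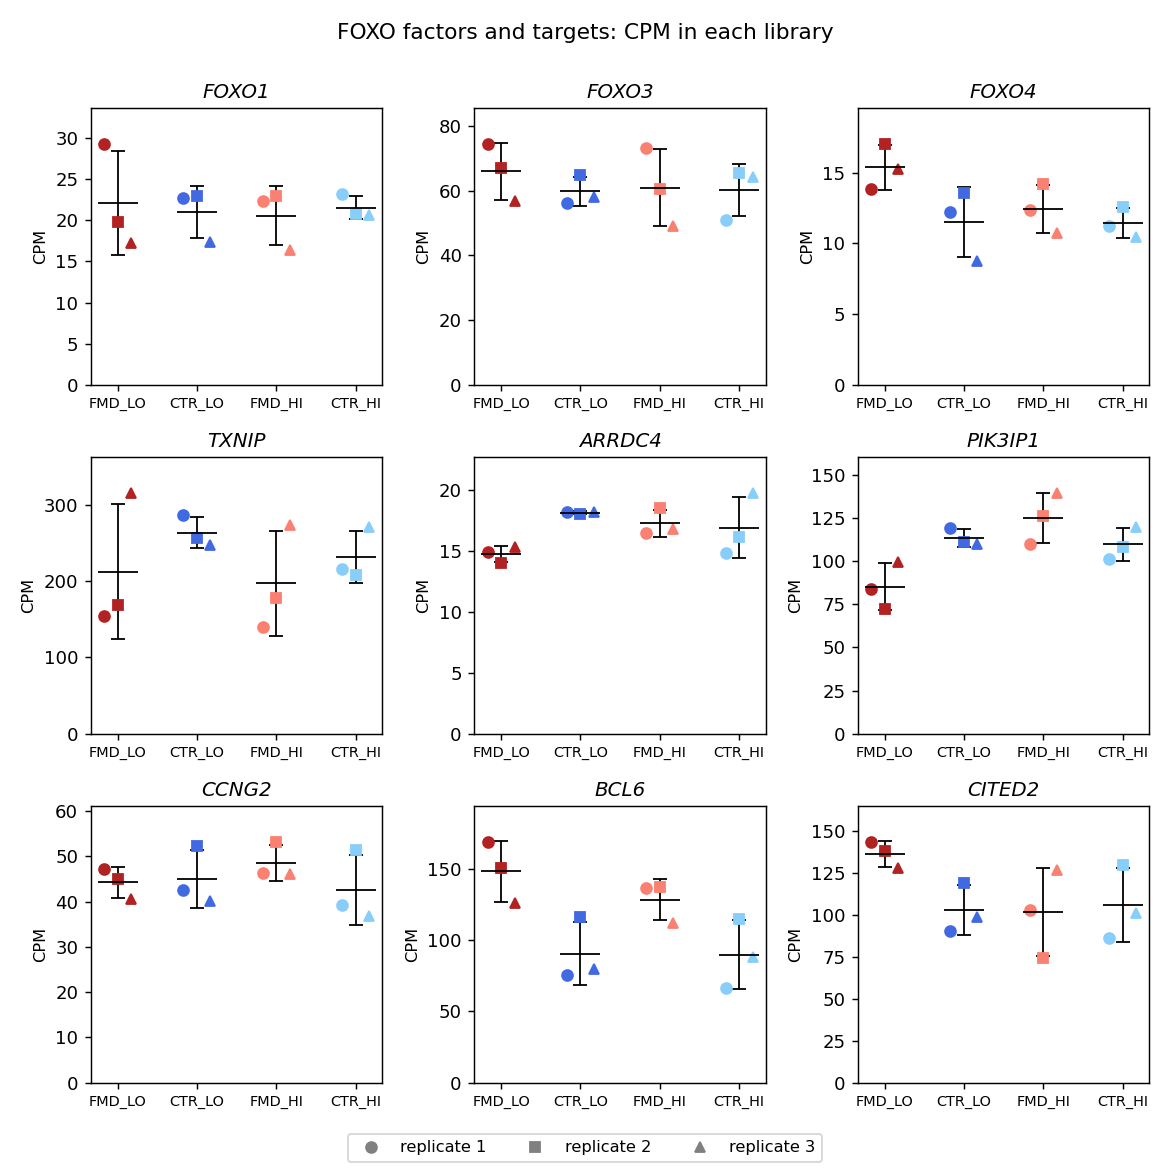
CPM (linear axis from 0) of the 9 genes in each of the 12 libraries, by group on the x axis, with marker shape giving the replicate number, and the group mean and SD as lines. All 3 FMD_LO libraries lay above CTR_LO for BCL6, CITED2 and FOXO4 and below it for PIK3IP1 and ARRDC4.

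In CD24-low cells 1 of the 9 rose under the fasting-mimicking diet, BCL6, and 1 fell, PIK3IP1, at an adjusted p below 0.05 (edgeR's quasi-likelihood test over all genes, Benjamini-Hochberg). That is 2 of 9, a share near that of all tested genes, of which 16.4% passed (1863 higher and 670 lower). The CPM of FMD_LO and CTR_LO did not overlap for 5 of the 9 genes, against 37.5% of all tested genes. In CD24-high cells none of the 9 passed, and 0% of all genes did (0 genes by edgeR, with 1042 at an unadjusted p below 0.05, and 75 by DESeq2); none of the 9 separated FMD_HI from CTR_HI, against 9.19% of all genes. The median log2 fold change of the 9 was 0.07 in FMD_LO over CTR_LO and 0.03 in FMD_HI over CTR_HI, where the medians over all tested genes were -0.03 and 0.00.

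Between the gates, 1 of the 9 passed in FMD_LO against FMD_HI, PIK3IP1, which was lower in FMD_LO; 14% of all tested genes passed. Of the 9, 3 (PIK3IP1, ARRDC4 and CITED2) did not overlap between these 2 groups, against 31.4% of all genes. In CTR_LO against CTR_HI no member passed, 0% of all genes passed (0 by edgeR, 91 at an unadjusted p below 0.05, and 0 by DESeq2), and none of the 9 separated the groups, against 3.43% of all genes. The test of whether the diet effect differed between the gates passed for none of the 9 and for 4.13% of all genes. With the replicate number as a block within each diet it passed for 1 of the 9, PIK3IP1, and for 11% of all genes. That block joined libraries of the same number in the control diet as well, so the blocked result rests on both pairings. The CTR_LO libraries stand in 2 of these comparisons and so do the other groups, so the fold changes are not independent of each other.

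**Figure D2:**
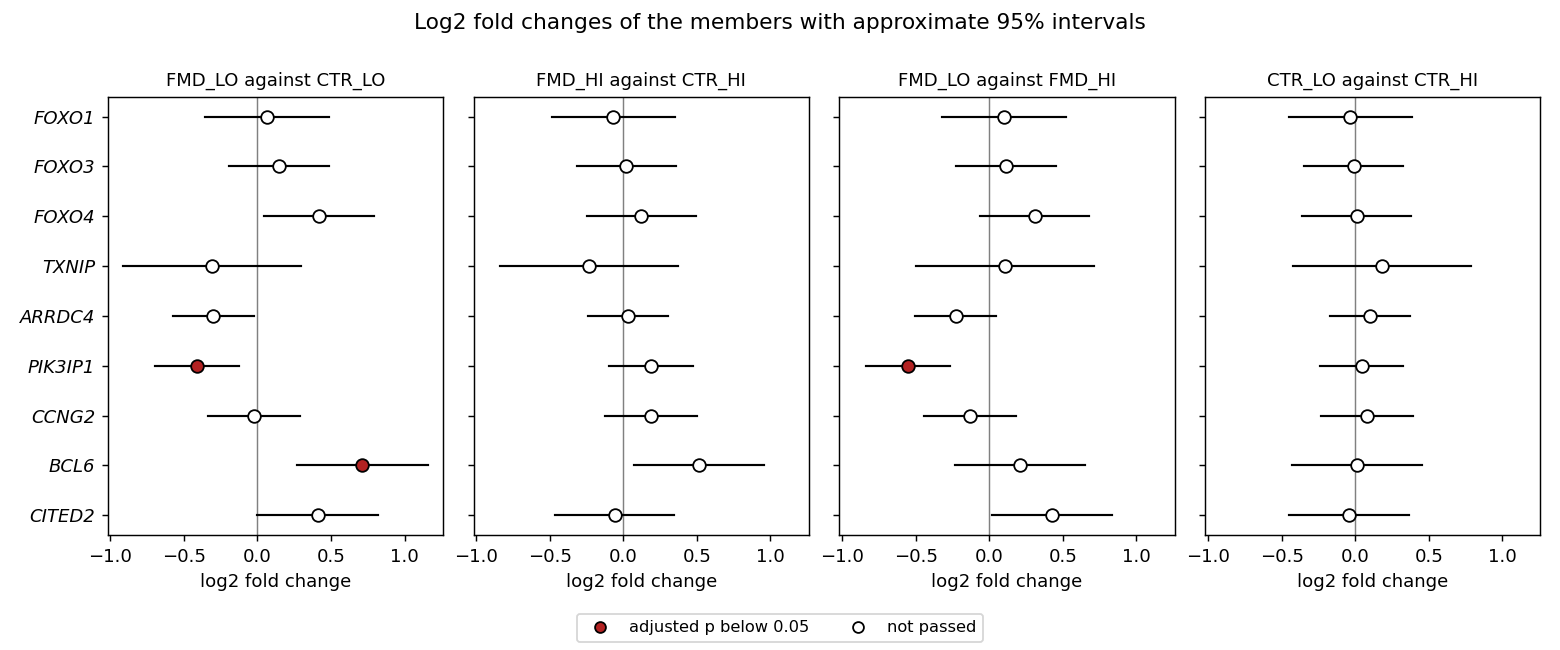
Log2 fold change (x axis) of each gene in the 4 comparisons with its approximate 95% interval; filled points had an adjusted p below 0.05. The filled points are BCL6 (0.71) and PIK3IP1 (-0.41) in FMD_LO against CTR_LO and PIK3IP1 (-0.55) in FMD_LO against FMD_HI.

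FOXO1, the founding insulin-responsive factor (gene at chr13:40555667-40666641 in GRCh38), had 29.3, 19.8 and 17.2 CPM in FMD_LO and 22.8, 23.0 and 17.4 CPM in CTR_LO. In CD24-high cells it had 22.4, 22.9 and 16.5 CPM in FMD_HI and 23.2, 20.8 and 20.7 CPM in CTR_HI. The groups overlapped, and FMD_LO replicate 1 was the highest of all 12 libraries. The log2 fold change was 0.07 ± 0.20 (SE, adjusted p = 0.850 by edgeR) in FMD_LO over CTR_LO, with a 95% interval of -0.35 to 0.49, and without FMD_LO replicate 1 it was -0.19. In FMD_HI over CTR_HI it was -0.07 ± 0.19, with an interval of -0.48 to 0.35.

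FOXO3, the paralog most often linked to stress resistance and autophagy (chr6:108559825-108684774), had 74.3, 67.1 and 56.8 CPM in FMD_LO and 56.2, 64.9 and 58.2 CPM in CTR_LO. It had 73.2, 60.4 and 49.2 CPM in FMD_HI and 50.8, 65.4 and 64.2 CPM in CTR_HI. The diets overlapped in both gates. Its log2 fold change was 0.14 ± 0.16 in FMD_LO over CTR_LO (interval -0.19 to 0.48) and 0.02 ± 0.16 in FMD_HI over CTR_HI (interval -0.32 to 0.36). FOXO3B on another chromosome is a near-identical copy with 3.90 to 6.05 CPM, and reads that match both may be missing from the counts of FOXO3 or counted for the other copy, which was not measured.

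FOXO4, which is X-linked (chrX:71095851-71103532), had 13.8, 17.0 and 15.3 CPM in FMD_LO and 12.2, 13.5 and 8.76 CPM in CTR_LO. It had 12.3, 14.2 and 10.8 CPM in FMD_HI and 11.2, 12.6 and 10.48 CPM in CTR_HI. All FMD_LO libraries lay above all CTR_LO libraries, though the closest pair, at 13.8 and 13.5 CPM, almost met. The CD24-high groups overlapped. On the opposite strand FOXO4 had 13, 20 and 24 counts in FMD_LO and 0 to 1 in each library of the other groups. On its own strand it had 233, 289 and 282 counts in FMD_LO. What these opposite-strand reads mean for the FOXO4 values was not tested. The log2 fold change of 0.42 ± 0.17 in FMD_LO over CTR_LO (interval 0.05 to 0.79) missed the threshold (adjusted p = 0.118 by edgeR), and in FMD_HI over CTR_HI it was 0.12 ± 0.17. FOXO6 averaged 4.59 ± 1.17 CPM in FMD_LO and 6.75 ± 1.84 CPM in CTR_LO (SD, n = 3 each), a log2 fold change of -0.56 ± 0.27 that did not pass either (adjusted p = 0.177 by edgeR).

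TXNIP encodes an alpha-arrestin that binds thioredoxin and drives the glucose transporter GLUT1 off the cell surface; its transcription follows glucose through the factors MondoA and ChREBP (gene at chr1:145992435-145996579). It had 154, 168 and 315 CPM in FMD_LO and 286, 257 and 247 CPM in CTR_LO. In CD24-high cells it had 139.8, 178 and 273 CPM in FMD_HI and 216, 208 and 271 CPM in CTR_HI. In each gate replicates 1 and 2 of the fasting-mimicking diet were below all control libraries and replicate 3 was above all of them. The log2 fold change was -0.31 ± 0.28 in FMD_LO over CTR_LO (interval -0.91 to 0.29, adjusted p = 0.483 by edgeR) and -0.24 ± 0.28 in FMD_HI over CTR_HI (interval -0.84 to 0.37). Without FMD_LO replicate 3 the CD24-low value was -0.72 (adjusted p = 0.0543 by edgeR), and without FMD_HI replicate 3 the CD24-high value was -0.55 (adjusted p = 0.654 by edgeR). Leaving out replicate 1 moved them the other way, to -0.13 without FMD_LO replicate 1 and -0.03 without FMD_HI replicate 1. Among the 9 genes TXNIP had the largest biological coefficient of variation, 0.242, where the others had 0.124 to 0.185.

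ARRDC4 is the alpha-arrestin closest to TXNIP in sequence and is induced by the same glucose-sensing factors (chr15:97960703-97973833). It had 14.9, 14.0 and 15.4 CPM in FMD_LO and 18.3, 18.1 and 18.2 CPM in CTR_LO. It had 16.5, 18.5 and 16.8 CPM in FMD_HI and 14.9, 16.2 and 19.8 CPM in CTR_HI. The CD24-low groups did not overlap and the CD24-high groups did. The log2 fold change of -0.30 ± 0.13 in FMD_LO over CTR_LO (interval -0.58 to -0.03) missed the threshold at an adjusted p of 0.128 by edgeR, and in FMD_HI over CTR_HI it was 0.03 ± 0.13. In replicate 3 of the fasting-mimicking diet, where TXNIP was high, ARRDC4 was at 15.4 CPM in FMD_LO and 16.8 CPM in FMD_HI.

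None of the 3 glucose-sensing factors passed in any comparison. MLX averaged 45.9 ± 3.59 CPM in FMD_LO and 45.4 ± 1.82 CPM in CTR_LO. MLXIP, which encodes MondoA, averaged 84.4 ± 5.40 CPM in FMD_LO and 94.4 ± 11.9 CPM in CTR_LO. MLXIPL, which encodes ChREBP, was low, at 1.23 ± 0.243 CPM in FMD_LO and 2.37 ± 0.300 CPM in CTR_LO (SD, n = 3 each), a log2 fold change of -0.96 ± 0.32 with no overlap that just missed the threshold (adjusted p = 0.0547 by edgeR). Of the other alpha-arrestins, ARRDC1, ARRDC2 and ARRDC3 were tested and none passed. ARRDC3 averaged 169 ± 27.6 CPM in FMD_LO and 153 ± 20.7 CPM in CTR_LO, and ARRDC5 had at most 3 counts in a library and was not tested.

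PIK3IP1 encodes a membrane protein that binds PI3-kinase and restrains it (chr22:31281593-31292534). It had 83.6, 72.3 and 99.4 CPM in FMD_LO and 119, 111 and 109.7 CPM in CTR_LO. In CD24-high cells it had 110.1, 126 and 139 CPM in FMD_HI and 101, 108 and 119.9 CPM in CTR_HI. All 3 FMD_LO libraries lay below each of the other 9, while FMD_HI and CTR_HI overlapped.

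PIK3IP1 fell in FMD_LO relative to CTR_LO by 0.41 on the log2 scale (-0.41 ± 0.13, interval -0.70 to -0.13, adjusted p = 0.0493 by edgeR), with means of 85.1 ± 13.6 CPM in FMD_LO and 113 ± 5.03 CPM in CTR_LO (SD, n = 3 each). This call lay at the threshold: it passed in 5 of 19 alternative analyses (adjusted p of 0.0181 to 0.214), and it was lost when any 1 library other than FMD_LO replicate 3 or FMD_HI replicate 3 was left out. Against FMD_HI, with 125 ± 14.5 CPM, the difference of -0.55 ± 0.13 (interval -0.84 to -0.27) had an adjusted p of 0.0113 by edgeR and passed in 18 of 20 alternatives; it was lost without FMD_LO replicate 2 (adjusted p = 0.0678) and without FMD_HI replicate 3 (adjusted p = 0.0512). In FMD_HI over CTR_HI the log2 fold change was 0.19 ± 0.13 and did not pass (adjusted p = 0.893 by edgeR). The difference between the diet effects of the 2 gates was -0.60 ± 0.19 (interval -1.002 to -0.198) and did not pass (adjusted p = 0.101 by edgeR); without FMD_LO replicate 3 it was -0.75 and passed (adjusted p = 0.0435), and with the number as a block within each diet it was -0.61 and passed (adjusted p = 0.0163). An antisense gene overlaps PIK3IP1; the counts used strand, and 0.676% of the reads over PIK3IP1 were on the opposite one.

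The tested genes whose profile over the 12 libraries was most like that of PIK3IP1 were EXD3, GLMP and TRMT2B, with root mean square differences of 0.110, 0.113 and 0.119 in centred log2 CPM, against a median of 0.304 over 10596 candidate genes. The profile of PIK3IP1 itself varied by 0.245 on that scale.

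CCNG2 encodes an atypical cyclin that is induced in growth-arrested cells (chr4:77157207-77170060). It had 47.2, 45.0 and 40.6 CPM in FMD_LO and 42.6, 52.4 and 40.1 CPM in CTR_LO. It had 46.3, 53.1 and 46.1 CPM in FMD_HI and 39.4, 51.4 and 36.9 CPM in CTR_HI. All groups overlapped, and replicate 2 was the highest library in 3 of the 4 groups. CCNG2 had a log2 fold change of -0.02 ± 0.15 in FMD_LO over CTR_LO (interval -0.34 to 0.29) and of 0.19 ± 0.14 in FMD_HI over CTR_HI (interval -0.12 to 0.50; 0.36 without CTR_HI replicate 2). The related cyclins CCNG1 and CCNI did not pass in any comparison.

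BCL6 encodes a zinc-finger repressor best known from germinal centre B cells and also made in breast cancer cells (chr3:187721377-187745468). It had 168, 151 and 126 CPM in FMD_LO and 75.6, 116 and 79.9 CPM in CTR_LO. In CD24-high cells it had 136, 137 and 112 CPM in FMD_HI and 66.6, 114 and 88.4 CPM in CTR_HI. Every FMD_LO library was above every CTR_LO library; in CD24-high cells the lowest FMD_HI library, at 112 CPM, was just under the highest CTR_HI library, at 114 CPM, and those 2 alone crossed.

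BCL6 averaged 148 ± 21.4 CPM in FMD_LO and 90.5 ± 22.3 CPM in CTR_LO (SD, n = 3 each) and so rose by 0.71 ± 0.21 on the log2 scale, with an interval of 0.27 to 1.16 (adjusted p = 0.0319 by edgeR). The call held in 15 of 19 alternatives, with adjusted p of 0.00503 to 0.108, and was lost without FMD_LO replicate 1 (0.107), FMD_LO replicate 2 (0.0808), CTR_LO replicate 1 (0.103) or CTR_LO replicate 3 (0.108). In CD24-high cells it averaged 128 ± 14.3 CPM in FMD_HI and 89.8 ± 24.0 CPM in CTR_HI, a log2 fold change of 0.52 ± 0.21 (interval 0.07 to 0.96) that did not pass (adjusted p = 0.659 by edgeR). The diet effects of the gates differed by 0.20 ± 0.29, with an interval of -0.43 to 0.82, so the data neither separate them nor show them to be alike. Beside the CD24-high values, the 15 leukocyte markers summed to 135 to 154 CPM in FMD_HI and 103 to 165 CPM in CTR_HI, most of it LCP1. Without LCP1 they summed to 29.2 to 42.5 CPM in FMD_HI and 18.5 to 27.1 CPM in CTR_HI, with no overlap. Of the 15, 2 were higher in every FMD_HI library, SPI1 (1.76 to 4.34 CPM in FMD_HI, 0.630 to 1.19 CPM in CTR_HI) and LYZ (1.39 to 3.56 CPM in FMD_HI, 0.286 to 1.25 CPM in CTR_HI). None of the 10 tested markers passed, their median log2 fold change was 0.77, and their part in the BCL6 values was not tested.

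Of 7 BCL6 relatives and corepressor subunits, 1 passed in FMD_LO over CTR_LO, or 14.3%, beside 16.4% of all genes. This was NCOR1, which rose, a nuclear corepressor that BCL6 recruits, with 79.2 ± 18.5 CPM in FMD_LO and 40.2 ± 2.62 CPM in CTR_LO (log2 fold change 0.98 ± 0.22, adjusted p = 0.00841 by edgeR); it passed in all 19 alternatives. In CD24-high cells NCOR1 had 43.02 ± 10.4 CPM in FMD_HI and 42.99 ± 11.55 CPM in CTR_HI. In FMD_LO against FMD_HI, 2 of the 7 rose (28.6%, beside 14% of all genes that passed), NCOR1 (0.88 ± 0.22, lost without FMD_LO replicate 1, FMD_HI replicate 2 or FMD_HI replicate 3) and BCL6B (3.65 ± 0.76), a paralog near the detection limit with 1.73 ± 1.123 CPM in FMD_LO and 0.134 ± 0.0193 CPM in FMD_HI. The genes with profiles most like that of BCL6 were MNT, SGMS1 and TOM1, at root mean square differences of 0.133, 0.134 and 0.140 in centred log2 CPM over 12 libraries, against a median of 0.459 over the candidates and a variation of 0.404 in BCL6 itself.

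CITED2 encodes a coactivator partner that binds CBP and p300 and limits HIF-1 activity (chr6:139371807-139374648). It had 143, 138 and 128 CPM in FMD_LO and 90.2, 119 and 98.7 CPM in CTR_LO. It had 103, 74.4 and 127 CPM in FMD_HI and 86.3, 129.7 and 101 CPM in CTR_HI. FMD_LO lay above CTR_LO and above FMD_HI with no overlap, though FMD_LO at 128 CPM and FMD_HI at 127 CPM almost met, and the CD24-high groups overlapped. The log2 fold change was 0.41 ± 0.19 in FMD_LO over CTR_LO (adjusted p = 0.161 by edgeR) and 0.43 ± 0.19 in FMD_LO over FMD_HI (adjusted p = 0.171 by edgeR), and neither passed. In FMD_HI over CTR_HI it was -0.06 ± 0.19, and 0.14 without FMD_HI replicate 2.

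Of the 7 CITED relatives and partners 1 passed in 1 comparison, where 14% of all genes passed: CITED4 fell in FMD_LO relative to FMD_HI (-0.93 ± 0.28, adjusted p = 0.0405 by edgeR), with 10.1 ± 1.70 CPM in FMD_LO and 19.3 ± 6.52 CPM in FMD_HI, and the call was lost in 6 of the 12 fits that left out 1 library. HIF1A averaged 543 ± 100 CPM in FMD_LO and 390.5 ± 73.7 CPM in CTR_LO without passing.

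Under the fasting-mimicking diet, CD24-low and CD24-high libraries with the same number tended to move together, though not for every gene of the 9. TXNIP had 154 CPM in FMD_LO and 139.8 CPM in FMD_HI in replicate 1, 168 CPM in FMD_LO and 178 CPM in FMD_HI in replicate 2, and 315 CPM in FMD_LO and 273 CPM in FMD_HI in replicate 3. FOXO3 was highest in replicate 1 and lowest in replicate 3 in both gates, and for BCL6 replicate 3 was lowest in both. CITED2 went the other way: replicate 3 was lowest in FMD_LO (128 CPM) and highest in FMD_HI (127 CPM). For ARRDC4, replicate 2 was lowest in FMD_LO (14.0 CPM) and highest in FMD_HI (18.5 CPM). Over all tested genes the deviations from the group means correlated by 0.285 to 0.485 for the 3 same-number pairs of FMD_LO and FMD_HI. This was not particular to the fasting-mimicking diet: same-number pairs of CTR_LO and CTR_HI correlated by 0.445 in replicate 1, 0.522 in replicate 2 and 0.0373 in replicate 3. With the number as a block within each diet, CITED2 passed in FMD_LO against FMD_HI (0.46, adjusted p = 0.0318 by edgeR) beside PIK3IP1. So 2 of the 9 passed, and 4201 genes (27.2%) passed in place of 2163. The pairing by number was inferred from these same counts and is not stated in the labels. The CITED2 gap was uneven over the pairs, at log2 ratios of FMD_LO over FMD_HI of 0.47, 0.89 and 0.01, while PIK3IP1 was lower in FMD_LO in all 3 pairs, at -0.40, -0.80 and -0.49. In the 3 control pairs the PIK3IP1 ratios of CTR_LO over CTR_HI were 0.23, 0.04 and -0.13.

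**Figure D3:**
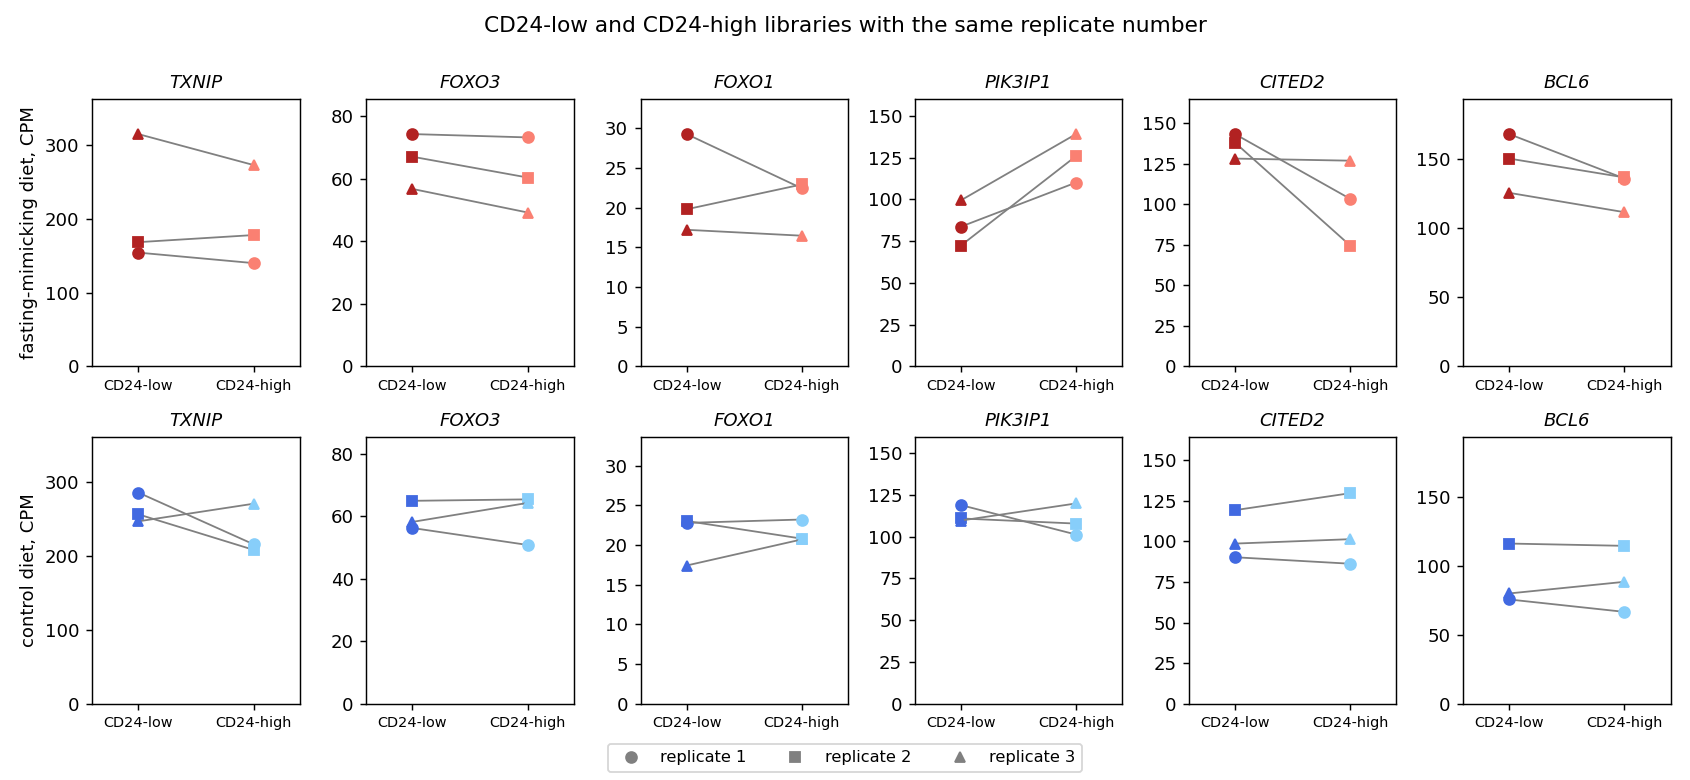
CPM (linear axis from 0) of 6 genes in the CD24-low and CD24-high libraries that share a replicate number, joined by a line, with the fasting-mimicking diet above and the control diet below. TXNIP in replicate 3 is the highest of both FMD gates (315 CPM in FMD_LO, 273 CPM in FMD_HI), and all 3 FMD lines of PIK3IP1 run from lower CD24-low to higher CD24-high values.

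Around the FOXO genes themselves, a list of 32 receptors, kinases, 14-3-3 proteins, cofactors and other genes that act on FOXO proteins held 31 tested genes. Of these, 8 rose and 1 fell in FMD_LO over CTR_LO, or 29%, where 16.4% of all genes passed. Their median log2 fold change was 0.34, against -0.03 over all tested genes. The list was chosen with earlier results of these data known, so its share and median are not an independent test. IGF1R, the receptor at the top of the pathway, had 180.2 ± 42.7 CPM in FMD_LO and 67.05 ± 8.56 CPM in CTR_LO (1.43 ± 0.19, adjusted p = 0.000194 by edgeR). YWHAH, a 14-3-3 protein, rose by 0.52 ± 0.12 (adjusted p = 0.0111 by edgeR). MAPK8, which encodes the stress kinase JNK1, rose by 0.58 ± 0.15 (adjusted p = 0.0187 by edgeR), and PIK3CA, a catalytic subunit of PI3-kinase, by 0.44 ± 0.13 (adjusted p = 0.0297 by edgeR). The gene that fell was SKP2, which encodes a ubiquitin ligase subunit able to mark FOXO1 for degradation (-0.49 ± 0.15, adjusted p = 0.0455 by edgeR); it was named after its value was seen.

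IGF1R passed in all 19 alternatives. The count of 8 that rose was 3 without FMD_LO replicate 1, 3 without FMD_LO replicate 2, 5 without CTR_LO replicate 1 and 2 without CTR_LO replicate 3, and ranged up to 10. Left-out libraries ended the call for YWHAH (FMD_LO replicate 2 or CTR_LO replicate 3), MAPK8 (FMD_LO replicates 1 or 2, CTR_LO replicates 1 or 3) and PIK3CA (FMD_LO replicates 1 or 2, CTR_LO replicates 2 or 3), and SKP2 passed in 4 of the 12 fits with 1 library left out. In FMD_HI over CTR_HI none of the 31 passed. In FMD_LO over FMD_HI 6 of the 31 rose (19.4%, beside 14% of all genes that passed), and IGF1R (1.06 ± 0.19), YWHAH (0.73 ± 0.12) and PIK3CA (0.56 ± 0.13) were among those that passed in all 20 alternatives. With the number as a block, 10 rose and 2 fell, where 27.2% of all genes passed. The diet effect differed between the gates for IGF1R (1.18 ± 0.26, adjusted p = 0.0213 by edgeR) and YWHAH (0.72 ± 0.17, adjusted p = 0.0341 by edgeR), 2 of 31, where 4.13% of all genes passed; IGF1R was lost without FMD_LO replicates 1 or 2, CTR_LO replicate 3 or CTR_HI replicate 3, and YWHAH passed in 3 of 12 such fits.

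Of 40 other genes known as FOXO targets in 1 or more cell types, 39 were in the files and 34 were tested; INSR and IRS2 are on this list and on that of upstream genes. In this list 7 rose and 1 fell in FMD_LO over CTR_LO, or 23.5%, beside 16.4% of all genes. The median log2 fold change was 0.22 against -0.03. This list too was chosen with earlier results of these data known, so these values are not an independent test. BTG1, an antiproliferative factor, had 1024 ± 47.8 CPM in FMD_LO and 505 ± 117 CPM in CTR_LO (1.02 ± 0.19, adjusted p = 0.00264 by edgeR). BCL2L11, which encodes the cell-death protein BIM, had 71.7 ± 9.79 CPM in FMD_LO and 38.6 ± 5.66 CPM in CTR_LO (0.89 ± 0.17, adjusted p = 0.00324 by edgeR). PDK4, a kinase that shuts off pyruvate dehydrogenase in fasting, had 9.49 ± 3.44 CPM in FMD_LO and 2.17 ± 1.42 CPM in CTR_LO (2.15 ± 0.47, adjusted p = 0.00903 by edgeR). KLF9, a Krüppel-like factor, rose by 1.35 ± 0.31 and MXI1, an antagonist of MYC, by 0.88 ± 0.21. SESN3, a sestrin that restrains mTORC1 and that FOXO factors induce in other cells, fell, with 137 ± 6.51 CPM in FMD_LO and 252 ± 21.0 CPM in CTR_LO (-0.88 ± 0.15, adjusted p = 0.00150 by edgeR). So the targets that passed did not all move one way.

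BTG1, BCL2L11, PDK4, KLF9 and SESN3 passed in all 19 alternatives; MXI1 was lost without CTR_LO replicate 3 (adjusted p = 0.0501), and without that library 4 targets rose in place of 7. None of the 34 passed in FMD_HI over CTR_HI, where the median was 0.21 against 0.00 over all genes. There, PDK4 averaged 4.52 ± 1.80 CPM in FMD_HI and 1.65 ± 0.584 CPM in CTR_HI (1.45 ± 0.48, adjusted p = 0.558 by edgeR), and SESN3 averaged 186 ± 28.99 CPM in FMD_HI and 263 ± 50.6 CPM in CTR_HI (-0.50 ± 0.15, adjusted p = 0.524 by edgeR), each without overlap. In FMD_LO over FMD_HI 4 of the 34 rose (11.8%, beside 14% of all genes that passed): BTG1 (0.97 ± 0.19), KLF9 (1.45 ± 0.31), BCL2L11 (0.74 ± 0.17) and CDKN1B, which encodes the cell cycle inhibitor p27 (0.46 ± 0.14, lost without FMD_LO replicates 1 or 2 or FMD_HI replicates 2 or 3). With the number as a block, 10 rose and 7 fell, again beside 27.2% of all genes. No target passed the test of the difference between gates, the lowest being BTG1 (0.93 ± 0.27, adjusted p = 0.0763 by edgeR). PCK1, G6PC, IGFBP1, FASLG and TRIM63, targets known from liver, immune cells and muscle, had at most 6 counts in a library and were not tested.

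**Figure D4:**
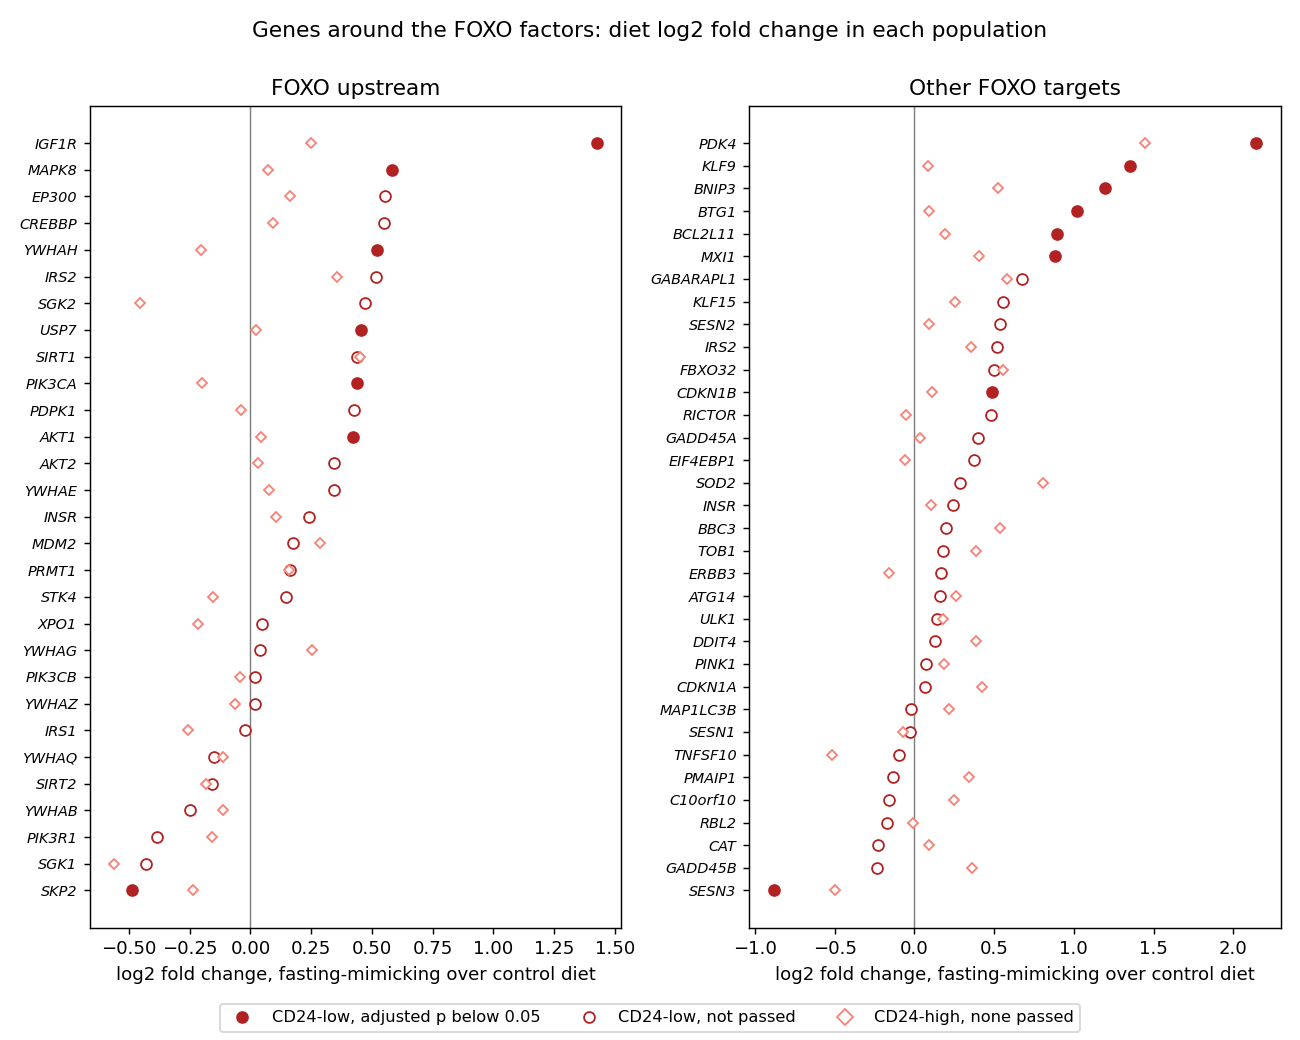
Log2 fold change, fasting-mimicking over control diet, of 29 of the 31 tested genes that act on FOXO proteins and of 34 other FOXO targets; circles are CD24-low cells (filled where the adjusted p was below 0.05) and diamonds are CD24-high cells, where none passed. IGF1R (1.43) and PDK4 (2.15) lie farthest to the right and SKP2 (-0.49) and SESN3 (-0.88) farthest to the left among the circles.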

How the data were processed

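RNA-seq was made from sorted SUM159PT cells with a stranded mRNA kit, per the labels' protocols. The deposited files hold counts per gene by strand for each library; STAR and hg38 are named in the submitters' processing notes, and versions, annotation and any removal of mouse reads are not given in the sources used here. Counts of the reverse strand (17736610 to 47587142 per library) were used. Genes were fitted with edgeR 4.0.16 in R 4.3.3 (TMM scaling, filterByExpr, robust quasi-likelihood fit, 4 groups of 3 libraries, 8 residual degrees of freedom). Benjamini-Hochberg adjustment ran over 15461 genes, with a threshold of 0.05. CPM used TMM-scaled library sizes; SE is the log2 fold change over the root of F, and 95% intervals are therefore approximate. Exon lengths came from GENCODE 29. The fit was tested on simulated data. Alternatives changed strand, scaling (RLE), filter, tool (DESeq2 1.42.0), fitted groups, replicate block and depth, or left out libraries.

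All 9 genes are named, with FOXO6, up to 6 list genes that passed per list and comparison (smallest p first), and the 3 genes (mean of at least 5 CPM) most like each member that passed. A few list genes are not reported by name here; the counts and sums over the lists include them. The members and the lists were chosen with earlier results of these data known. Replicate numbers come from the sample titles. FMD_LO and FMD_HI libraries of 1 number deviated together (correlations of 0.285 to 0.485, other numbers -0.372 to -0.0376). The numbers were therefore taken to pair those groups. This pairing was inferred from the same counts that the block was then used to test. Deviations within a group of 3 libraries sum to 0, so the same-number and other-number correlations are not independent of each other. For CTR_LO with CTR_HI the correlations were 0.0373 to 0.522 (other numbers -0.549 to 0.171), and across diets -0.221 to 0.0824. There the numbers were not taken to show pairs, although replicates 1 and 2 of the control diet correlated by 0.445 and 0.522. The block within each diet nevertheless also joined CTR_LO and CTR_HI libraries of 1 number. Its results for the difference between gates rest on that control pairing too.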

Additional observations from a re-analysis of the deposited data

How the results depend on the processing

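Over the 9 genes and 5 comparisons, 806 alternative values kept direction and side of the threshold within 1 SE or kept a call, 11 kept both but moved by more than their SE, 20 lost a call, 4 gained one and 50 turned sign. In FMD_LO against CTR_LO, 1 gene of the 9 (BCL6) passed in place of 2 with reads of either strand, RLE scaling, only the compared groups or equal depth, and 0 to 2 with 1 library left out; over all genes 1562 to 2795 then passed in place of 2533 (1662 without FMD_LO replicate 1, 1562 without FMD_LO replicate 2, 1577 without CTR_LO replicate 3). In FMD_HI against CTR_HI, 1 gene passed with no count filter, 75 with DESeq2, and 0 to 1 with 1 library left out. In FMD_LO against FMD_HI, 0 to 1 of the 9 passed with 1 library left out. For the difference between gates 1156 genes passed with DESeq2 in place of 638, and 380 to 767 with 1 library left out, among them 0 to 1 of the 9. No value that turned sign passed the threshold, and the log2 fold changes they turned from were at most 0.197 in size. In fits that left out 1 library the sign turned for 20 gene values. In FMD_LO against CTR_LO these were FOXO1 (-0.19 to 0.21) and CCNG2 (-0.092 to 0.083). In FMD_HI against CTR_HI they were FOXO1 (-0.14 to 0.069), FOXO3 (-0.13 to 0.15), ARRDC4 (-0.056 to 0.15) and CITED2 (-0.25 to 0.14). In FMD_LO against FMD_HI they were FOXO1 (-0.17 to 0.24), FOXO3 (-0.020 to 0.28) and TXNIP (-0.31 to 0.42). In CTR_LO against CTR_HI they were FOXO1 (-0.093 to 0.073), FOXO3 (-0.12 to 0.061), FOXO4 (-0.11 to 0.16), PIK3IP1 (-0.0082 to 0.11), CCNG2 (-0.031 to 0.24), BCL6 (-0.20 to 0.23) and CITED2 (-0.17 to 0.14). For the difference between gates they were FOXO1 (-0.13 to 0.27), FOXO3 (-0.012 to 0.30), TXNIP (-0.50 to 0.23) and BCL6 (-0.034 to 0.39). CCNG2 in FMD_LO against CTR_LO also turned with RLE scaling (0.0060), DESeq2 (0.0061) and equal depth (0.023), FOXO3 with equal depth in FMD_HI against CTR_HI (-0.0031) and CTR_LO against CTR_HI (0.0032), and FOXO4 in CTR_LO against CTR_HI with RLE scaling (-0.00015) and with the number as replicate block across diets (-0.0013) or within each diet (-0.0060). Thinning and left-out libraries remove reads or samples, and the cause of the turned signs was not tested under any alternative. The number as replicate block across diets, where the numbers do not pair the samples, gave 1 gene in FMD_HI against CTR_HI, and FOXO4 passed in FMD_LO against CTR_LO (0.43, adjusted p = 0.0465 by edgeR). The block within each diet gave 4201 genes and 2 of the 9 in FMD_LO against FMD_HI, and 1702 genes and 1 of the 9, PIK3IP1 (-0.61, adjusted p = 0.0163 by edgeR), for the difference between gates; it changed no other call of the 9. Without the FMD_LO libraries, an alternative chosen after seeing the data, no member passed in FMD_HI against CTR_HI or CTR_LO against CTR_HI. The list counts under these alternatives were also added after seeing the data. With 3 libraries a group, intervals of about 0.3 to 0.6 on either side of a log2 fold change between 2 groups limit what can be seen. Those of the difference between gates were wider, the widest of the 9 being -0.93 to 0.78 for TXNIP.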
